A study of Mus musculus with 2 samples.

Results

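The genes described here are 10 mouse genes that mark the 2-cell-like state: Zscan4a, Zscan4b, Zscan4c, Zscan4d, Zscan4f, Tcstv1, Tcstv3, Usp17la, Usp17lc and Zfp352. They were taken by name, as every non-control probe whose gene name in the scanner files is one of these symbols, and the rule itself uses no measured value. This gave 14 probes of 56605 on the array, for 10 of 33012 gene names. The 10 genes themselves were chosen with earlier results of these data known, so their counts beside the whole array are no independent test. The study compared wild type 46C mouse embryonic stem cells, a line with a GFP reporter at the Sox1 locus, with 46C cells labelled KO-Linc1548, a knockout of a long intergenic non-coding RNA. Both were sampled at day 5 of neural differentiation as floating aggregates in G-MEM with knockout serum replacement. Each group has 1 single-colour array of total RNA, so there are no replicates, no test was run, and no difference here is set against the spread between cultures. The labels do not say how the knockout was made or whether it is 1 clone. The series title places the RNA at the step from epiblast stem cells to neural progenitors, together with OCT6 and SOX2.

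Mouse embryos switch on their own genome at the 2-cell stage, and a transient set of genes and endogenous retroviral transcripts marks this step. In embryonic stem cell cultures a small and changing share of cells enters a similar state, driven by factors such as Dux, Dppa2 and Dppa4. The Zscan4 genes encode nuclear proteins with a SCAN domain and zinc fingers that are known for their part in telomere maintenance in stem cells. Tcstv1 and Tcstv3 belong to a gene group named for its variable expression at the 2-cell stage. Usp17la and Usp17lc encode deubiquitinating enzymes, which remove ubiquitin from proteins, and Zfp352 is a zinc finger gene transcribed in the early embryo. In whole cultures, more cells in such a state and more RNA per cell cannot be told apart.

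The probes are 60 bases long, and their sequences were compared with each other. They were not compared with the family transcripts, so probes that share no run can still read the same transcripts. Of 91 pairs of member probes, 1 shared a run of 25 or more identical bases, and the longest run in the other pairs was 9 bases. That pair is the Zscan4a probe and the Zscan4c probe that starts at base 2130 of its transcript, with a shared run of 53 bases and 56 matching bases of 58 aligned. The last 30 bases of each are shown because they hold the part in which they differ, with the bases outside the shared run in capitals.
Zscan4a probe: tgcattgcctcttcagacatctcatATCAT
Zscan4c probe at base 2130: cattgcctcttcagacatctcatGCCATGT
The signals of these 2 probes are therefore uncertain as separate readings of Zscan4a and Zscan4c. The array design itself lists several family members for most Zscan4 probes. It lists Zscan4b, Zscan4c, Zscan4d and Zscan4f for the Zscan4b probe, and Zscan4a, Zscan4c, Zscan4d and Zscan4f for the Zscan4f probe. For the Zscan4c probe at base 804 it lists Zscan4a, Zscan4c and Zscan4d. The probes named for Tcstv1, Tcstv3, Usp17la, Zfp352 and Usp17lc at base 1428 list their own gene alone among the families. The Usp17lc probe at base 2328 is named by a transcript that the design also lists for Usp17la.

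Outside the 10 genes, 2 probes shared a run of 25 or more bases with a member probe, both with Usp17lc. The Usp17ld probe, for another gene of the same deubiquitinase family, matched 56 of 60 bases of the Usp17lc probe at base 1428, including an unbroken run of 41. Both are shown whole, with the differing bases in capitals.
Usp17lc probe at base 1428: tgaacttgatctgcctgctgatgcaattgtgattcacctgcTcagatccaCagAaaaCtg
Usp17ld probe: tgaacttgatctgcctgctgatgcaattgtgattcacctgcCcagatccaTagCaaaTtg
Counted from the 5′ end of the probe, with the Usp17lc base first, the differences are T42C, C51T, A54C and C58T. The probe for the transcript AK155468 shared a run of 41 bases with the Usp17lc probe at base 2328, of which the first 30 are shown as the stretch that both probes read.
Usp17lc probe at base 2328 and AK155468 probe: ctgtagagatagatgttcttattctttgtg

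Intensities are given in the units of the scanner software. Wild type values stand as deposited, and knockout values were multiplied by 1.32 so that both arrays have the 75th percentile of the wild type array. Each value is given with the software's own error, which for bright spots is about 10% of the signal and covers error within an array. A probe was counted as measured where the software called it well above background on both arrays. Log2 differences are knockout minus wild type, and 2-fold was the limit for calling a gene higher or lower. By this rule 7 member probes were well above background on both arrays, 4 on the knockout array alone and 3 on neither.

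At day 5, 6 of the 7 members measured on both arrays read at least 2-fold higher on the knockout array, by 17.9-fold to 24.6-fold. These were Zscan4a, Zscan4b, Zscan4c, Zscan4f, Tcstv3 and Usp17la, and the remaining gene, Zfp352, read 1.49-fold higher. The Zscan4 probes among them share bases or design listings across the family, so they are not separate readings of single genes. The other 3 members, Zscan4d, Tcstv1 and Usp17lc, were well above background on the knockout array alone, each at least 2-fold higher by its lower bound. Over the 18691 measured genes of the array, 11.5% passed the limit upwards and 8.81% downwards. For probes these shares were 10.5% and 8.45%, beside 6 and 0 of the 7 measured member probes. Of 21840 probes not well above background in wild type, 7.32% were so on the knockout array, beside 4 of the 7 such member probes. Where that happened the bound was at least 2-fold for 71.3% of 1599 probes and for the 4 member probes. The median log2 difference was 4.36 over the 7 measured members and 0.10 over all measured genes. Because the members were chosen with earlier results of these data known, these contrasts are description only.

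**Figure D1:**
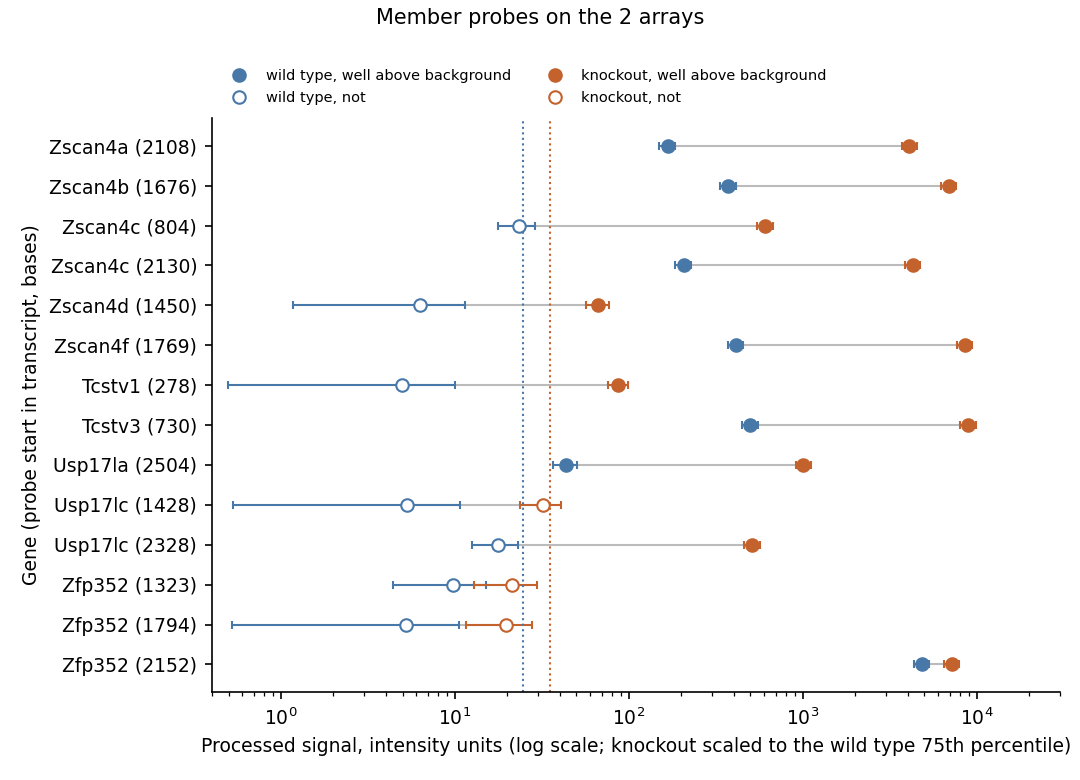
Processed signal of each of the 14 member probes on the wild type array (blue) and the knockout array (orange, scaled), on a log axis in intensity units, with bars for the software's error. Filled points are well above background, and the dotted lines mark the lowest such signal on each array, 24.5 for wild type and 35.1 for the knockout. The 6 probes measured on both arrays and over 2-fold higher run from wild type signals of 43.3 to 499 to knockout signals of 1009 to 8947, while the bright Zfp352 probe goes from 4831 to 7217.

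The Zscan4 genes lie in a cluster on chromosome 7, and RefSeq lists Zscan4a as a transcribed pseudogene and Zscan4b, Zscan4c, Zscan4d and Zscan4f as protein-coding. Probe positions are those of the files, on mouse build mm9. Whether a probe lies in an exon or a UTR was not analysed here. The Zscan4a probe (chr7:11379679-11379738, minus strand) read 167 ± 17.4 in wild type and 4104 ± 410 in the knockout. The log2 difference was 4.62, or 24.6-fold, which ranks 13 among all measured genes. On this probe the wild type signal was well above background, so the difference is a measured one and not a bound. The Zscan4b probe (chr7:11486107-11486166, minus strand) read 373 ± 37.6 against 6901 ± 690, a log2 difference of 4.21 and 18.5-fold. The Zscan4f probe (chr7:11987608-11987667, plus strand) read 414 ± 41.7 against 8526 ± 853, a log2 difference of 4.36 and 20.6-fold. Both probes are listed by the design for 4 Zscan4 genes, so which of these genes gave the signal cannot be told from the probe.

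Zscan4c, the family member often used to report the 2-cell-like state in stem cell cultures, has 2 probes. The probe at base 2130 (chr7:11595751-11595810, plus strand) read 206 ± 21.3 in wild type and 4305 ± 431 in the knockout, a log2 difference of 4.38 and 20.9-fold. The probe at base 804 (chr7:11594425-11594484, plus strand) read 23.4 ± 5.69 and 609 ± 61.4, and it was not well above background in wild type. Against the lowest signal well above background on that array its difference was at least 24.9-fold. Both Zscan4c probes were thus higher on the knockout array. They share no long run, but the design lists Zscan4a as well as Zscan4c for both, so neither is a reading of Zscan4c alone. The sequence of the probe at base 804 is given because it shares no long run with the Zscan4a probe.
Zscan4c probe at base 804: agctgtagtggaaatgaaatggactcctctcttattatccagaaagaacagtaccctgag
Zscan4d is the family member known from the 2-cell embryo, and its probe (chr7:11751301-11751359, minus strand) carries a predicted transcript's accession that the design also lists for the Zscan4a probe. The Zscan4d signal was 6.29 ± 5.12 in wild type, not well above background, and 66.6 ± 10.1 in the knockout. The difference was at least 2.72-fold, and with normexp background correction, which adds an offset of 50 intensity units, the log2 difference was 0.95 and under the 2-fold limit. With the same correction the Zscan4c probe at base 804 had a log2 difference of 2.76, which is under its bound.

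Of the Tcstv pair, Tcstv3 was measured on both arrays. Its probe, which the files place on unassigned sequence (chrUn_random:3141-3200, minus strand), read 499 ± 50.2 in wild type and 8947 ± 895 in the knockout. The log2 difference was 4.16, or 17.9-fold. Tcstv1 has a probe without a position in the files, and its wild type spot carries a surrogate, which the software puts in for a spot too dim to measure, of 4.97 ± 5.01. On the knockout array Tcstv1 read 87.0 ± 11.4, well above background and at least 3.55-fold higher. With normexp background correction its log2 difference was 1.22, which is under that bound. Both genes were therefore higher on the knockout array, one as a measured difference and the other as a bound. AF067061, a neighbouring gene of the same group, had 2 probes, both well above background on both arrays. They read 710 against 12471 (log2 difference 4.13) and 62.5 against 896 (3.84), and the design lists Tcstv3 for the dimmer one. The dimmer probe also matched the Tcstv1 probe at 29 of 33 aligned bases, with a longest shared run of 11. The Tcstv1 signal is therefore uncertain as a separate reading.

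Usp17la and Usp17lc lie in a separate cluster of deubiquitinase genes on chromosome 7. The Usp17la probe (chr7:112011037-112011095, plus strand) read 43.3 ± 6.68 in wild type and 1009 ± 101 in the knockout. The log2 difference was 4.54, or 23.3-fold, and it lay between 3.21 and 4.55 over the alternative settings. For Usp17lc the 2 probes disagree. The probe at base 2328 (chr7:110568320-110568379, plus strand) read 17.8 ± 5.26 in wild type, not well above background, and 514 ± 51.9 in the knockout, at least 21.0-fold higher. With normexp background correction its log2 difference was 2.71, which is under that bound. The probe at base 1428 (chr7:110567420-110567479, plus strand) was well above background on neither array, with a surrogate of 5.31 ± 5.33 in wild type and 32.1 ± 8.51 in the knockout. The Usp17lc call therefore rests on the probe that shares 41 bases with AK155468. The AK155468 probe itself read 23.0 in wild type, not well above background, and 790 in the knockout. The Usp17ld probe, which differs from the Usp17lc probe at base 1428 by 4 bases, was also well above background on neither array, at 17.1 and 33.9. Of the other family genes, Usp17lb read 5.05 in wild type and 158 in the knockout, at least 6.43-fold higher, and Usp17le was well above background on neither array, at 5.00 and 36.2. The 5 Usp17l genes with probes thus gave 1 measured difference, 2 bounds and 2 genes below the detection call.

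Zfp352 departed from the other members. Its probe at base 2152 (chr4:89892270-89892329, plus strand) was bright on both arrays, at 4831 ± 483 in wild type and 7217 ± 722 in the knockout. The log2 difference was 0.58, or 1.49-fold, which places it at rank 4095 of the 18691 measured genes. Its other probes were well above background on neither array. The probe at base 1323 (chr4:89891441-89891500, plus strand) read 9.71 ± 5.29 and 21.2 ± 8.33. The probe at base 1794 (chr4:89891912-89891971, plus strand) read a surrogate of 5.25 ± 5.27 in wild type and 19.7 ± 8.10 in the knockout. The 3 probes of Zfp352 therefore do not give 1 level, and which of them reads the gene's transcript in these cells was not tested. The dim probes are shown whole, and the bright probe by its last 30 bases.
Zfp352 probe at base 1323: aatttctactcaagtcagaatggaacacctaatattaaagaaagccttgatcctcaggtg
Zfp352 probe at base 1794: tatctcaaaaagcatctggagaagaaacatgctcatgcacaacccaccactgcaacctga
Zfp352 probe at base 2152: cctactttgcagctgattttaactgcttca

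**Figure D2:**
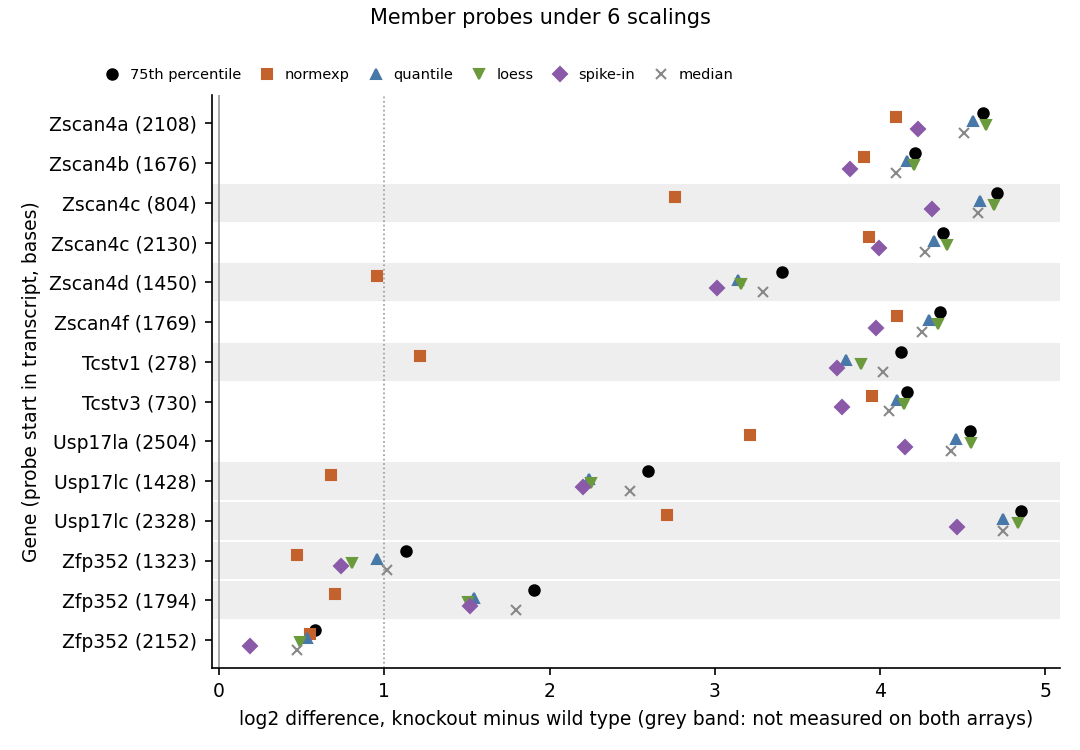
Log2 difference (knockout minus wild type) of each member probe under 6 ways to scale the arrays, with grey bands for probes not measured on both arrays and a dotted line at 2-fold. The 6 probes measured on both arrays and over 2-fold higher stay between 3.21 and 4.64, and the bright Zfp352 probe between 0.19 and 0.58. The probes in the grey bands are each lowest with normexp background correction, Zscan4d at 0.95 against 3.40 as scaled in the text.

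RefSeq promoter sequence (build GRCm38.p6) was read for the 4 protein-coding Zscan4 genes, whose probes were all brighter on the knockout array, and for Usp17la, Usp17lc and Zfp352. Each window holds 250 bases before and 50 after the start site. The Zscan4 windows were 95.3% to 99.3% identical to each other over their aligned bases, with Zscan4c and Zscan4f the closest pair at 275 of 277 bases. Usp17la and Usp17lc were 95.3% identical. The 200 bases before each Zscan4 start are shown, because they differ by few bases, with capitals for the motifs described after them.
Zscan4b, chr7:10905051-10905250, minus strand: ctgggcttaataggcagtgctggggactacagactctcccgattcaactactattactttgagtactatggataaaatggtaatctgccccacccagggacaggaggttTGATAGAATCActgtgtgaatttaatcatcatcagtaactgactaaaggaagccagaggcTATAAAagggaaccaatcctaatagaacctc
Zscan4c, chr7:11005545-11005744, plus strand: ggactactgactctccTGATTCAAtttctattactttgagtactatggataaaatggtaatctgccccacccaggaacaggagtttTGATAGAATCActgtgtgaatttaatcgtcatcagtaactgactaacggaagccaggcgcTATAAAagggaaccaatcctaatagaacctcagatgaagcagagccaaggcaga
Zscan4d, chr7:11166149-11166348, minus strand: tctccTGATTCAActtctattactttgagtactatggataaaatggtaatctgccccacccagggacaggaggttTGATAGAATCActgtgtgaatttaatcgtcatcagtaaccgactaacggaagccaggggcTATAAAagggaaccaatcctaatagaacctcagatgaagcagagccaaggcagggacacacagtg
Zscan4f, chr7:11397715-11397914, plus strand: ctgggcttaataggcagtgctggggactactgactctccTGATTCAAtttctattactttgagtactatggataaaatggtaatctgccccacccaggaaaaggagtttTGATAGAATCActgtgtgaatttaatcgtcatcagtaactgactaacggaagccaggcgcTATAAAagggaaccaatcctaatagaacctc
Motifs were searched on both strands of 32851 such windows. The TATA box core TATAAA was found in all 4 Zscan4 windows, at base −31 from the start in Zscan4b and Zscan4f, at −54 in Zscan4c and at −65 in Zscan4d. It is in 13.6% of all windows. TGATTCAA, which forms part of the motif known for Dux, was found in Zscan4c, Zscan4d and Zscan4f, not in Zscan4b, and in 0.581% of all windows. TGATAGAATCA, a run chosen after the promoters were read because it begins and ends like that motif, was found in all 4, at −91 in Zscan4b and Zscan4f, −114 in Zscan4c and −125 in Zscan4d. It is in 7 of all windows (0.0213%), which include the 4 near-identical Zscan4 windows from which it was chosen. These matches do not overlap each other.

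The Usp17lc window holds TATAAA and the Usp17la window does not, and neither holds the other motifs. The Zfp352 window holds none of these motifs and 7 copies of GGACAACACACC, a run chosen because it is the commonest of its length there, and found in no other window of the table (0.00304% of windows). The 200 bases before each start are shown for this contrast, with TATAAA and GGACAACACACC in capitals.
Usp17lc, chr7:103416496-103416695, plus strand: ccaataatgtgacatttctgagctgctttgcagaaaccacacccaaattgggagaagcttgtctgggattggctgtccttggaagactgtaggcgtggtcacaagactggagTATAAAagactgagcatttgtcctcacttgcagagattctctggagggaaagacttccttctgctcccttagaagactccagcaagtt
Usp17la, chr7:104856816-104857015, plus strand: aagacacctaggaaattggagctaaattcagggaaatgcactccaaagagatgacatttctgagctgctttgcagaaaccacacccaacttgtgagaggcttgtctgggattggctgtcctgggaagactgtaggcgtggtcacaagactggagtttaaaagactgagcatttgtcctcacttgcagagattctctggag
Zfp352, chr4:90218620-90218819, plus strand: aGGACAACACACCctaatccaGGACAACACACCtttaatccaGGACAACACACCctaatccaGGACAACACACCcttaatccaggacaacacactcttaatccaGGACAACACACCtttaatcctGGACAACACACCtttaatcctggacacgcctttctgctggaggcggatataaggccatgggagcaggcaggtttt
These matches describe letters in a window and were not compared with binding data.

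The members lie in 3 gene clusters and 1 single locus, and the genes beside them, in RefSeq order, were read for comparison. Inside the Zscan4 cluster RefSeq lists 32 other genes, of which 1 was on the array, Gm7207, at 11.0-fold higher. Of the 10 coding genes that flank the cluster, 9 of them vomeronasal receptor genes, 1 was measured, Vmn1r70, with a log2 difference of 0.29. Between the Tcstv genes on chromosome 13, 4 genes were measured and 3 were at least 2-fold higher. These were Gm20767 (17.7-fold), AF067061 (15.9-fold over its 2 probes) and BC147527 (8.69-fold), while B020031M17Rik differed by 0.20. The measured coding genes next to them stayed within 2-fold, with Hmgcs1 at −0.61, Nim1k at −0.86, Zfp131 at −0.53 and AF067063 at 0.20. A second probe of AF067063 was well above background in the knockout alone, at least 23.0-fold higher, so its probes disagree. A second probe of Zfp131 was detected in wild type alone, at least 2.57-fold higher there.

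The Usp17l genes are spread among 112 other genes, 74 of them olfactory receptor genes. Of 78 on the array, 11 were measured, 3 were at least 2-fold higher and 0 lower, and 65 were well above background on neither array. Trim34b was detected in the knockout alone, at least 2.98-fold higher, and Olfr657 in wild type alone, at least 2.76-fold higher there. The higher ones encode proteins of the TRIM family, Trim12c (7.12-fold), Trim6 (5.36-fold) and Trim34a (2.47-fold). Of the 10 olfactory receptor genes that flank this cluster, 0 were measured. Beside Zfp352 on chromosome 4, 7 of 10 flanking coding genes were measured and 2 were at least 2-fold higher, the cell cycle inhibitor genes Cdkn2a and Cdkn2b, at log2 differences of 1.30 and 1.14. These neighbours were named after their values were seen.

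**Figure D3:**
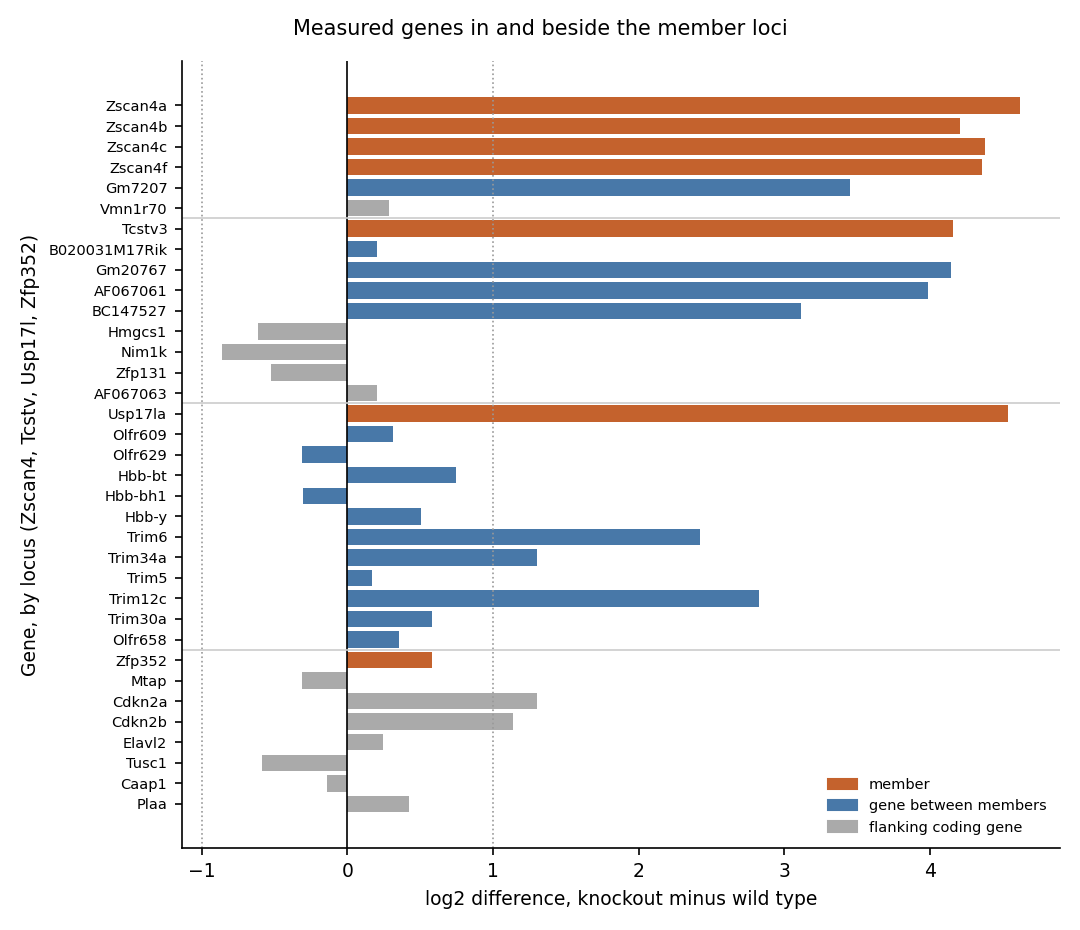
Log2 difference (knockout minus wild type) of the genes measured on both arrays at each member locus, with members in orange, genes between members in blue, flanking coding genes in grey, bars from 0 and dotted lines at 2-fold. Members other than Zfp352 lie between 4.16 and 4.62 and Trim6, Trim12c, BC147527, Gm7207, AF067061 and Gm20767 between 2.42 and 4.15. The other measured genes between members lie between −0.31 and 1.30, and the flanking genes between −0.86 and 1.30.

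Of the other genes of the 2-cell-like program, 43 were on the array and 19 were measured. Among these 11 passed 2-fold upwards and 0 downwards, and the median log2 difference was 2.13. The share higher was 57.9%, beside 11.5% of all measured genes. A further 6 were well above background on the knockout array alone, 5 of them by at least 2-fold, and 18 were well above background on neither array. Gm8300 read 27.2 against 675 (24.8-fold), Gm2022 read 97.4 against 2405 (24.7-fold) and Gm4340 read 236 against 4675 (19.8-fold). At the other end, Alyref, an mRNA export adaptor listed under its older name Tho4, had a log2 difference of −0.18. Eif1ax, a translation initiation factor gene, had a difference of 0.00, with its 2 probes at −0.43 and 0.43. Its sign turned negative with quantile, loess, spike-in and median scaling. The largest bounds were at least 12.7-fold for Gm12794, 12.4-fold for Tmem92, 7.40-fold for Pramef25 and 6.43-fold for Usp17lb.

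The program was thus not present in all its parts at levels the array could read. Among the 18 genes below the detection call were Tdpoz1, Tdpoz2, Tdpoz3 and Tdpoz4, Pramel6 and Pramel7, and AA792892, named here after their values were seen. Their knockout signals ran from 7.40 for AA792892 to 24.6 for Tdpoz3, all under the lowest well-above-background signal of 35.1. Usp17le, also among the 18, read 36.2 in the knockout, so that signal alone does not separate detected genes from the rest. Genes below the detection call were not detectable here, which does not show that they are silent.

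Of 9 genes known to activate the 2-cell-like state, 8 were measured, 4 of them over 2-fold higher and 0 over 2-fold lower, at a median log2 difference of 1.70. The share higher was 50%, beside 11.5% of all measured genes. The lists overlap, so their counts are not separate readings. Dppa2, Dppa4 and Tbx3, the last named after its value was seen, are also counted in the naive pluripotency list. Dux is also counted among the other 2-cell-like genes above. Dppa2, a nuclear factor upstream of Dux, read 289 against 4623 on its measured probe (16.0-fold). Its partner Dppa4 was 8.25-fold higher and Dppa3, a maternal factor of oocyte and early embryo, 7.16-fold higher. Nelfa, a subunit of the elongation control complex NELF, and Yy1, a zinc finger regulator, had log2 differences of 0.37 and 0.18, which turned to −0.02 and −0.21 with spike-in centring. Dux, the transcription factor that opens this program, read a signal of 5.17 in wild type and 45.5 in the knockout, where it was well above background. Its bound was at least 1.86-fold, under the 2-fold limit.

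Genes known to hold the 2-cell-like state in check were measured throughout, 36 of 36. Among them 5 were over 2-fold higher and 1 was over 2-fold lower, and the median log2 difference was 0.18. The share higher was 13.9%, near the 11.5% over all measured genes, of which 8.81% were lower. With spike-in centring 3 were higher and 4 lower, at a median of −0.21. The highest were Zfp42, also called Rex1 and a marker of naive pluripotency (11.3-fold), Dnmt3l, a cofactor of DNA methylation (9.92-fold), and Zfp809, a retroviral silencer (3.74-fold). Zfp42 is also counted in the naive pluripotency list. Ring1, a Polycomb subunit, was lowest at 2.79-fold lower. E2f6, a repressor of germline genes, had a difference of −0.99 just inside the limit and −1.38 with spike-in centring. In all, 30 genes of the list, E2f6 among them, stayed within 2-fold.

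The wider protein families of the members were read next. Among other SCAN zinc finger genes, 11 were measured, of which 2 were over 2-fold higher and 1 lower, with a median of −0.14. Zscan10, a pluripotency-associated factor, was 4.67-fold and Zscan5b 3.88-fold higher, Zscan18 differed by 0.47 on the log2 scale, Zscan21 by −0.74 and Zscan29 by −1.10. The 3 probes of Zscan29 ran from −1.44 to 0.90. Zscan2 was detected in wild type alone, at least 1.24-fold higher there. Of 45 other measured deubiquitinase genes, 4 were over 2-fold higher and 2 lower, with a median of 0.04. With spike-in centring these became 0 higher and 8 lower, at a median of −0.35, and the SCAN zinc finger counts became 2 and 2. Usp28, Usp9x and Usp36 were highest, at log2 differences of 1.25, 1.23 and 1.06, all under the limit with spike-in centring at 0.86, 0.84 and 0.67. Usp11 and the imprinted Usp29 were lowest, at −1.02 and −1.50. Usp26, on the knockout array alone, was at least 2.13-fold higher. The shares higher were 18.2% and 8.89%, beside 11.5% of all measured genes.

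Markers of pluripotent cells were mostly higher on the knockout array, and markers of neural progenitors were lower. Of 20 naive pluripotency genes, all measured, 17 were over 2-fold higher and 0 lower, at a median log2 difference of 3.19. Their summed signal, with each gene at the median of its probes, was 86031 in wild type and 492818 in the knockout. Most of it came from Dppa5a (72322 against 363887). The share over 2-fold higher was 85% in this list and 85.7% among the measured members. Nanog counted as within 2-fold at a log2 difference of 0.66, but its 2 probes disagree, at −1.63 and 2.95. Of 15 neural progenitor genes, all measured, 15 were over 2-fold lower, at a median of −2.62 and a summed signal of 139618 against 15981. Of 18 oocyte genes, which overlap in known expression with the early embryo, 7 were measured, 4 higher and 2 lower, 4 more were on the knockout array alone, and 7 were on neither. Their summed signal was 1831 against 6739. The median log2 difference of the measured ones was 1.30. Among the defining markers of oocytes, the zona pellucida gene Zp3 was 7.36-fold higher and Khdc3, of the maternal complex beneath the egg membrane, 12.3-fold higher. Nlrp14 and Figla were detected in the knockout alone, at least 9.86-fold and 4.48-fold higher, while Gdf9 and Zar1 had log2 differences of −2.06 and −1.52. Zp1, Zp2 and Bmp15 were well above background on neither array. Of 10 trophoblast genes, 7 were measured, 4 higher and 2 lower, at a median log2 difference of 1.74. Eomes was 9.33-fold, Tfap2c 7.08-fold, Cdx2 4.64-fold and Ascl2 3.34-fold higher, while Gata3 and Krt8 had log2 differences of −2.04 and −1.32. Elf5 and Hand1 were detected on neither array and Tpbpa in wild type alone. The summed signal was 54065 against 41015, most of it from Krt8 (15802 against 6321) and Krt18 (36688 against 30070). Of 10 primitive endoderm genes, all measured, 0 were higher and 3 lower, 7 stayed within 2-fold, and the median log2 difference was −0.08, or 0.04 with normexp. The summed signal was 40800 against 15314, most of it from Foxa2 (25281 against 6875) and Lama1 (9108 against 4543). The marker genes named here for naive pluripotency, oocyte, trophoblast and primitive endoderm were chosen after their values were seen. The part of these differences in the members' signals was not tested. The 15 housekeeping genes all stayed within 2-fold, with a median of 0.23, or −0.16 with spike-in centring.

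**Figure D4:**
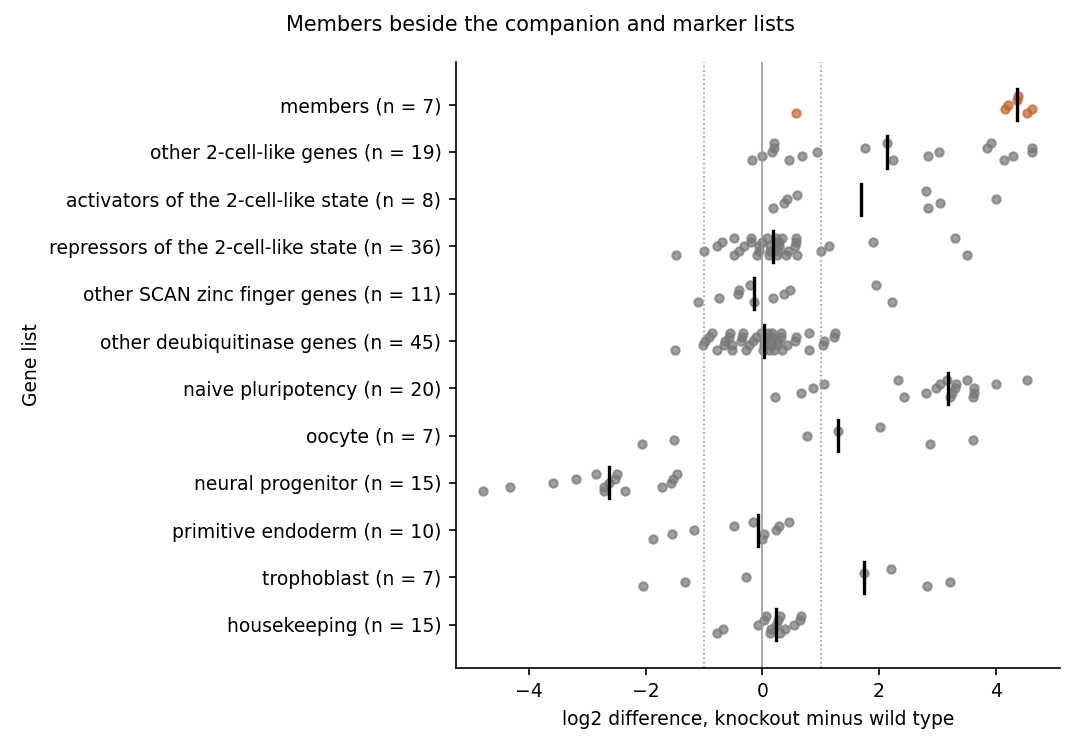
Log2 difference (knockout minus wild type) of each gene measured on both arrays, 1 point per gene, for the members and 11 companion or marker lists, with a black bar at each list's median and dotted lines at 2-fold. The members' median of 4.36 and the naive pluripotency median of 3.19 lie at the right, the neural progenitor median of −2.62 at the left, and the other deubiquitinase and SCAN zinc finger lists centre near 0.

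Slide and scan are shared by the arrays, while culture and the place on the slide cannot be told apart from the genotype. The share of probes well above background was 61.4% in wild type and 58.5% in the knockout, and 0 were saturated. Probes printed in 10 spots varied between spots with an SD of 0.06 to 0.07 (log2), which is spot noise within an array. No probe carries the name of Linc1548, so the labels were not checked against the targeted RNA. With the arrays centred on 8 spike-in probes every log2 difference is lower by 0.39, and the share of genes at least 2-fold higher is then 7.44% and lower 16.0%. The 6 members over 2-fold higher stay so there.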

How the data were processed

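Cy3-labelled total RNA of 1 wild type and 1 KO-Linc1548 culture was hybridised to 2 arrays, per the labels. The deposited values are spot intensity values from Agilent Feature Extraction 10.7.1.1 (submitters' processing notes), background-subtracted and detrended within each array, with surrogates for dim spots, per the file headers. Positions are on mm9, per the file headers. Groups follow the genotype labels.

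Outlier spots were left out and spots of a probe averaged. The 75th percentile of the non-control probes (864 in wild type, 652 in the knockout) was subtracted from the log2 intensity of its array. A probe was measured where at least 0.5 of its spots were well above background on both arrays. A gene's value is the median over its measured probes. A bound sets the bright signal against the other array's detection floor, the dimmest signal there that was well above background, or against the probe's own signal there if higher. It holds for the 75th percentile scaling alone and leaves out the error of the signals. No test was possible.

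Every member probe is reported. Of each companion list the 3 highest, 2 lowest and up to 4 bounds are named, and other names are said to be chosen after their values were seen. The members and lists were chosen with earlier results of these data known. RefSeq tables gave names and promoters. Tools were R 4.3.3, limma 3.58.1, Python 3.11.15, pandas 2.3.3 and Biopython 1.88. The number of arrays limits the precision. Array signal alternatives were normexp, quantile, loess, spike-in and median scaling, other filters, the brightest probe and bounds.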

Additional observations from a re-analysis of the deposited data

How the results depend on the processing

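The count of member genes at least 2-fold higher was 6 in 7 of 9 alternatives, 9 with genes entered at their bound and 10 with no filter on dim probes. The count of member probes was run under 7 alternatives and was 6 in all but no filter, which gave 13. With no filter, the counts and the median take in background-level and surrogate values. Zfp352 is added there only through its probe at base 1323 (log2 difference 1.13), which was well above background on neither array. The median log2 difference of the measured members was 4.36. It was 3.94 with normexp, 3.97 with spike-in centring, 4.25 with median centring and 4.19 with no filter, and stayed between 4.29 and 4.36 in the other alternatives. Of 70 alternative values of member probes 0 changed sign. Part of the 70 come from probes not well above background on both arrays, some with a wild type surrogate. For those probes a constant sign is no measured difference. Of 175 alternative values for 25 genes outside the members, 0 changed from a called value to the opposite sign and 13 crossed the 2-fold limit. Those were values of E2f6, Usp11, Usp28, Usp36, Usp9x, Zscan21 and Zscan29. The cause was not tested. No paired analysis was possible because each group has 1 array and the result comes from no test. Signal over background limits Zscan4d, Tcstv1, Usp17lc and 2 of the 3 Zfp352 probes, for which no measured difference can be given.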
